A study of Homo sapiens with 6 samples.

Results

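HMGCS1, IDI1, FDFT1, SQLE, INSIG1, SREBF1 and SREBF2 are 7 genes of cholesterol synthesis and its control, and their chromatin was described from lists of ChIP-seq peaks for acetylated lysine (Kac) and benzoylated lysine (Kbz). They were taken by name from the GENCODE annotation of hg38, which holds 62663 genes on the chromosomes used, 20033 of them protein-coding. A peak was counted for a gene when it shared at least 1 bp with the gene body extended by 5 kb on each side. By this rule the 7 genes held 22 of the 70326 control Kac peaks, 22 of the 63282 SB Kac peaks and 11 of the 24308 SB Kbz peaks. No receptor for cholesterol uptake is among the 7.

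The cells were labelled as HepG2, an established human liver tumour line, grown in DMEM with 10% FBS. The control group was left untreated and the SB group received sodium benzoate, which is converted in cells to benzoyl CoA, at 10 mM for 24 h. Chromatin from MNase digestion was immunoprecipitated with pan antibodies, which bind the modified lysine on any histone or site. The series has 6 libraries, with input, Kac and Kbz from each group and 1 library of each. The peak lists of control Kac, SB Kac and SB Kbz were used. For control Kbz the labels state that peak calling returned nothing, so there is no untreated Kbz peak list to set beside SB Kbz.

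Cholesterol is built from acetyl-CoA through mevalonate, isoprenoid diphosphates and squalene. HMGCS1 forms HMG-CoA near the start of this route, IDI1 interconverts the isoprenoid building blocks, FDFT1 joins farnesyl diphosphate into squalene, and SQLE oxidises squalene on the way to lanosterol. SREBF2 encodes the transcription factor SREBP-2, which switches on these enzymes when sterols are scarce, while SREBF1 encodes SREBP-1, known mainly for fatty acid synthesis. INSIG1 holds the SREBP precursors in the endoplasmic reticulum when sterols are plentiful, and liver cells run the route at a high rate.

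With 1 library per group there is no replicate error and no test, and sequencing depth is unknown, so values are given as they stand. The 3 lists covered 130 Mb (control Kac), 115 Mb (SB Kac) and 32.3 Mb (SB Kbz). The label of the cells was set against marker genes. Of 17 liver genes, 2 had their transcription start site (TSS) under a peak, the same 2 in each list, and 11 had no control Kac peak within 3 kb of the TSS. ALB and AFP, which define liver cells and liver tumours, had 0 peaks within 3 kb in every list. The median share of positions within 3 kb under a peak was 0% for the liver genes in each list. Of 8 embryonic kidney genes, the TSS of 5 lay under control Kac, that of 6 under SB Kac and that of 4 under Kbz. Of 6 neuronal genes it was 1, 2 and 1, and of 5 blood genes 1, 1 and 0. Over all protein-coding genes the TSS lay under control Kac in 59.1%, SB Kac in 60.4% and Kbz in 45.8%. PAX8 and HOXD10 of the kidney genes had 0 peaks within 3 kb in every list. The lists thus lack the defining liver markers, and the group names below follow the labels. The part this plays in the values of the 7 genes was not tested.

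The first question was whether the marks lay on the promoters. Every one of the 7 genes had peaks of all 3 lists in its window, where 82.6% of all protein-coding genes had control Kac, 81.4% SB Kac and 72.3% Kbz. In 6 of the 7 the canonical TSS itself was under a peak of all 3 lists, a state found in 44.8% of protein-coding genes. By list, 59.1% of protein-coding genes had control Kac over the TSS, 60.4% SB Kac and 45.8% Kbz. Among genes with Kac over the TSS in both groups, 80.3% also had Kbz there, as did 6 of 6 here. None of the 7 had Kac over the TSS in a single group, which 3.39% of protein-coding genes showed for control alone and 4.65% for SB alone. The exception was INSIG1, whose TSS was under no peak of any list although all 3 marks lay within 3 kb of it, an arrangement seen in 3.7% of protein-coding genes. The TSS of the 4 enzyme genes and of both SREBF genes was thus under Kac peaks with and without benzoate, and under Kbz peaks after it, in the full lists. At a stricter threshold, a −log10 q of 5 or more, Kbz stayed over the TSS of SREBF1 and IDI1, control Kac over that of HMGCS1, FDFT1 and SREBF1, and SB Kac over that of SQLE, FDFT1, SREBF1 and SREBF2. At that threshold FDFT1 and SREBF1 thus had Kac over the TSS in both groups, HMGCS1 in control alone, SQLE and SREBF2 in SB alone, and IDI1 in neither. The SB Kac peaks of HMGCS1 and IDI1 missed it narrowly, with a −log10 q of 4.95 and 4.96. The shares of all protein-coding genes in these states were not computed at that threshold, so the 7 genes cannot be set against other genes there. The sharing between groups therefore holds for the lists as deposited.

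**Figure D1:**
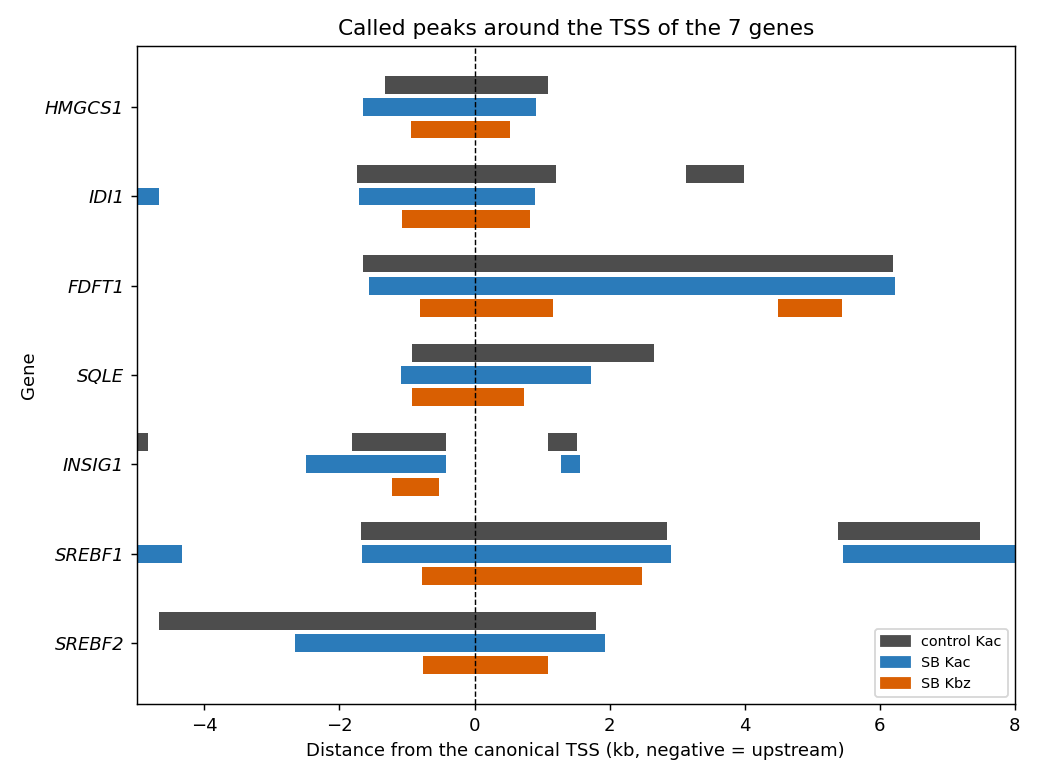
Each bar is a called peak of control Kac, SB Kac or SB Kbz, drawn by its distance in kb from the canonical TSS of the gene (dashed line) and shown from 5 kb upstream to 8 kb downstream. Peaks of all 3 lists cross the line in 6 of the 7 genes, and at INSIG1 they stop 427 bp (control Kac), 419 bp (SB Kac) and 519 bp (Kbz) upstream of it.

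Sequence before the TSS was taken from RefSeq (GRCh38.p14), which had an entry at the canonical TSS for 5 of the 7 genes. The stretches below come from the 250 bases upstream, without the part annotated as untranslated sequence of longer transcripts. They are shown because the first was under no peak and the other 2 lay wholly under all 3 lists. Capitals mark letters of 4 motifs searched on both strands, namely the core of the sterol regulatory element bound by SREBPs (TCACNCCAC), CCAAT, the GC box GGGCGG and the E-box CACGTG.
INSIG1, chr7:155297628-155297775, plus strand: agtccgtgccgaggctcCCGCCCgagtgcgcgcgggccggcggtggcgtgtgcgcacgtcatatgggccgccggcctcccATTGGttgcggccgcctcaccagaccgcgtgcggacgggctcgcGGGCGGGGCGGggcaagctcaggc
SREBF2, chr22:41832855-41833104, plus strand: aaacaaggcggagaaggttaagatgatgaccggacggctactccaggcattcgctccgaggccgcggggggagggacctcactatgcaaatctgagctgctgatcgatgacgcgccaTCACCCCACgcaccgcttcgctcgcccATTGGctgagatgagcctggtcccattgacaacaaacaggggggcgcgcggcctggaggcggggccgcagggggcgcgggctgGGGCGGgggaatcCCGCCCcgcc
HMGCS1, chr5:43313513-43313662, minus strand: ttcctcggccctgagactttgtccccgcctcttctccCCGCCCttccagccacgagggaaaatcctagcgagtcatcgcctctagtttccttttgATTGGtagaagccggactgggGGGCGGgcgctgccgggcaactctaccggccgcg

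Over the whole 250 bases, the sterol element core occurred once among the 5 promoters, as TCACCCCAC from 133 to 125 bases before the SREBF2 TSS. In all, 0.883% of 35116 RefSeq promoters held it in the same 250 bases. CCAAT, in which the letters ATTGG are its reverse strand, was present in HMGCS1, INSIG1, SREBF2 and IDI1 and not in SREBF1, against 32% of all promoters. The GC box was found in all 5, from 1 copy in IDI1 to 5 in INSIG1, against 42.6%. A pair of the INSIG1 GC boxes overlapped by 1 base. The E-box was found in INSIG1, 55 to 50 bases before the TSS, against 6.34%. The INSIG1 stretch was 77.7% G and C and lay outside every peak, while those of SREBF2 (67.2%) and HMGCS1 (63.3%) lay inside. The stretches of SREBF1 (70.1%) and IDI1 (69.2%), not printed above, also lay wholly under all 3 lists. The stretches differed in length, from 148 bases at INSIG1 to 250 at SREBF2 and IDI1. A match of letters does not show that a factor binds there. Only these exact letters within 250 bases were searched, so a missing match does not show that an element is missing.

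Among the enzymes, HMGCS1 (chromosome 5, 43287470 to 43313512, minus strand, TSS at 43313412) had a single peak in each list, each over the TSS. The control Kac peak was 2420 bp long, the SB Kac peak 2552 bp and the Kbz peak 1460 bp. The fold of a peak, its read density over background as the peak caller gave it, is comparable within its own list only, so it is given as a percentile of that list. The folds at HMGCS1 were 3.90, 3.57 and 3.80, at percentile 76.7 of control Kac, 69.8 of SB Kac and 46.1 of Kbz.

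IDI1 (chromosome 10, 1039152 to 1049119, minus strand) likewise had a peak of each list over its TSS, of 2953 bp (control Kac), 2615 bp (SB Kac) and 1903 bp (Kbz). Their percentiles were 60.4, 72.1 and 51.0. All 6 annotated starts of the gene lay under each of the 3 peaks. An intronic control Kac peak of 865 bp, 3130 bp downstream of the TSS and at percentile 9.60, had no SB Kac counterpart, and a 403 bp SB Kac peak beyond the end of the gene, at percentile 4.13, had no control counterpart. An SB Kac peak 4673 to 8603 bp upstream covered the start of the neighbouring gene WDR37. The control Kac peak at the same place began 647 bp past the window, so this pair is not a difference between the groups.

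FDFT1 (chromosome 8, 11795573 to 11839395, plus strand, TSS at 11802741) carried the longest acetylated stretch at any of the 7 TSS. It was 7847 bp in control Kac and 7787 bp in SB Kac, reaching 6190 and 6220 bp into the gene. Within it Kbz was called as separate peaks, one of 1970 bp over the TSS and another of 951 bp from 4490 to 5440 bp downstream. The inner Kbz peak ranked higher, at percentile 56.0 against 35.6. Of the 19 annotated FDFT1 starts, 15 were under Kac in either group and 12 under Kbz. About 7 kb upstream, just inside the longest annotated transcript, a further site had control Kac (percentile 47.3), SB Kac (70.8) and Kbz (8.14). The control and SB Kac peaks over the TSS stood at percentiles 77.5 and 81.2.

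SQLE (chromosome 8, 124998497 to 125022283, plus strand) had 1 peak per list, each over the TSS and over the start of the divergent non-coding gene SQLE-DT 307 bp upstream. The control Kac peak reached 2652 bp downstream of the TSS and the SB Kac peak 1720 bp, while upstream they reached 932 and 1090 bp. The Kbz peak was 1650 bp long. The control Kac peak stood at percentile 62.1, SB Kac at 79.0 and Kbz at 35.4. FDFT1 shares its peaks in the same way with a non-coding gene of the opposite strand, which starts 229 bp upstream of its TSS, so the marks at these starts cannot be given to one gene of the pair.

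INSIG1 (chromosome 7, 155297776 to 155310235, plus strand, TSS at 155297878) differed from the enzymes in where its marks lay. Upstream, control Kac reached from 1815 to 427 bp before the TSS, SB Kac from 2494 to 419 bp and Kbz from 1224 to 519 bp. The next peaks began 1094 bp (control Kac) and 1276 bp (SB Kac) downstream, so that 1520 and 1694 bp around the TSS were under no Kac peak. The upstream peaks ranked high, with folds of 5.06, 5.25 and 6.12 at percentiles 93.8, 91.3 and 89.7, and the downstream ones low, at 17.2 and 21.9. The start of the divergent gene INSIG1-DT, 337 bp upstream, lay in the same gap, and 0 of the 6 annotated INSIG1 starts were under a peak of any list. A further control Kac peak, 4832 to 8999 bp upstream, overlapped an SB Kac peak that ended 790 bp short of the window.

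**Figure D2:**
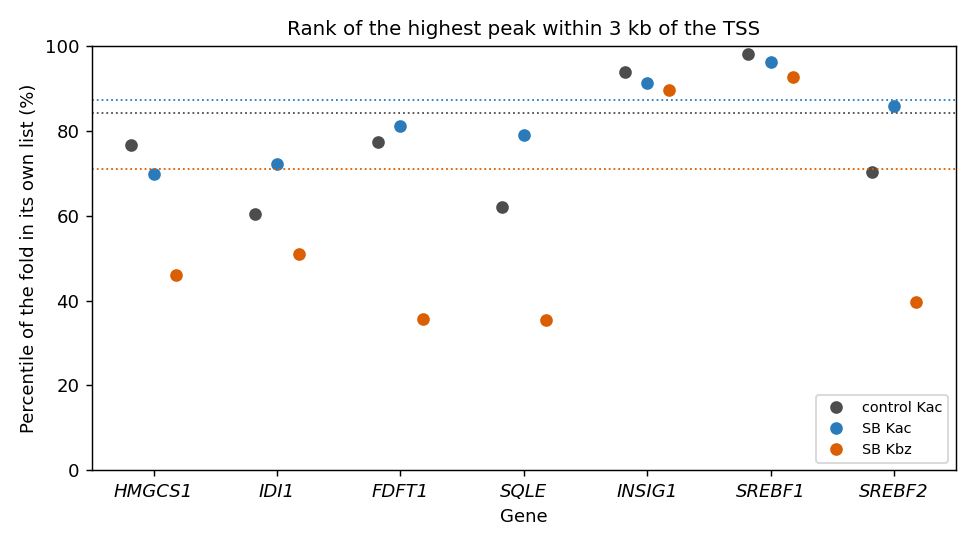
Points give, for each gene, the percentile of the fold within its own list for the highest peak within 3 kb of the TSS, and dotted lines the median over protein-coding genes with the TSS under a peak of that list (84.1 control Kac, 87.3 SB Kac, 71.1 Kbz). Kbz of HMGCS1, IDI1, FDFT1, SQLE and SREBF2 lies between 35.4 and 51.0, and Kbz of INSIG1 and SREBF1 at 89.7 and 92.6.

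The ranks of Kbz lay in separate ranges. HMGCS1, IDI1, FDFT1, SQLE and SREBF2 stood at percentiles from 35.4 to 51.0, and INSIG1 and SREBF1 at 89.7 and 92.6. Among the 9170 protein-coding genes with Kbz over the TSS the median was 71.1, the quartiles were 51.9 and 85.7, and 24% stood below IDI1. For Kac the 7 genes were nearer to other genes. The median of the 6 genes with Kac over the TSS was 73.5 in control Kac and 80.1 in SB Kac, against 84.1 and 87.3 for protein-coding genes. These ranks were compared after the values had been seen and without a test.

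SREBF1 (chromosome 17, 17810399 to 17837002, minus strand, TSS at 17836986) was the most densely marked of the 7, with 7 control Kac, 7 SB Kac and 3 Kbz peaks in 36.6 kb. Its TSS peaks were 4531, 4579 and 3258 bp long and stood at percentiles 98.1, 96.1 and 92.6, with folds of 5.87, 6.12 and 6.52. A second strong site lay over the end of the gene, about 25 kb from the TSS, with control Kac at percentile 81.2, SB Kac at 96.9 and a Kbz peak of 2226 bp at 82.9. A weaker Kbz peak of 892 bp, at percentile 25.2, lay inside an intronic Kac site. There control cells had peaks of 2624 and 667 bp with a gap between them, and SB cells a single peak of 5068 bp from 10171 to 15238 bp downstream of the TSS. That SB peak covered 3 of the 24 annotated starts of the gene, and the control peaks at this site covered 0. Upstream, an SB Kac peak of 5147 bp at percentile 37.6 had no control peak. The nearest control peak began 434 bp past its far edge and stood at percentile 90.7.

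SREBF2 (chromosome 22, 41833105 to 41907306, plus strand) is the longest of the genes, at 74.2 kb, and had Kbz at its TSS alone. This peak was 1849 bp long and stood at percentile 39.6. The Kac peaks over the TSS were 6467 bp in control and 4596 bp in SB cells, at percentiles 70.4 and 85.8, and the difference in length lay upstream, where they reached 4673 and 2664 bp. Both covered the start of the antisense gene SREBF2-AS1, 1560 bp inside SREBF2, and the Kbz peak did not. Inside the first intronic site control Kac was a single peak of 5613 bp, and SB Kac was split into peaks of 1534 and 1584 bp. A pair of control Kac peaks near the end of the gene had no SB counterpart. One of 808 bp stood at percentile 14.6 and one of 2583 bp at 46.8. An SB Kac peak of 668 bp, 32457 bp downstream of the TSS and at percentile 29.6, had no control counterpart.

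**Figure D3:**
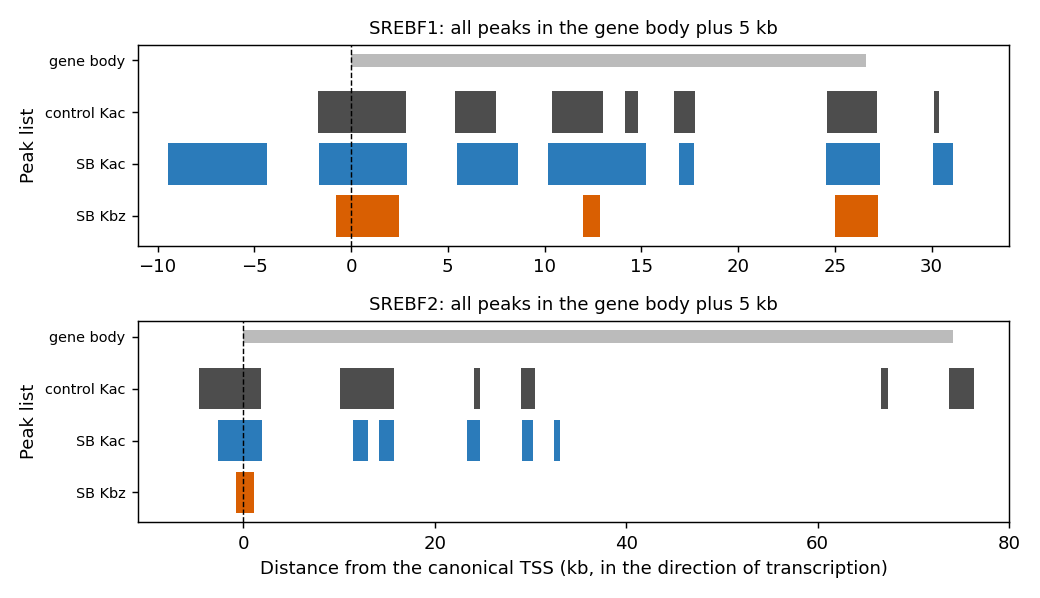
Peaks of control Kac, SB Kac and SB Kbz in the SREBF1 and SREBF2 windows, by distance in kb from the TSS along the direction of transcription, with the gene body in grey. SREBF1 has Kbz at the TSS, in an intron and over its end, and SREBF2 at the TSS, and the control Kac peaks from 66595 bp onward in SREBF2 have no SB counterpart.

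Each SREBF gene carries a microRNA of the miR-33 family in an intron, which is known to repress genes of cholesterol export. The mature sequences from RefSeq (GRCh38.p14) are shown with the seed, bases 2 to 8, in capitals, to show that the pair shares it.
hsa-miR-33b-5p, in SREBF1: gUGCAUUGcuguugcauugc
hsa-miR-33a-5p, in SREBF2: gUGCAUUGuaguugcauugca

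Neither hairpin was under a peak. For the SREBF1 hairpin the nearest peaks were 1426 bp (control Kac), 1402 bp (SB Kac) and 1848 bp (Kbz) away. For the SREBF2 hairpin they were 437 bp away in control Kac and 14213 bp in SB Kac, since the 808 bp control peak beside it was one of those without an SB counterpart.

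The next comparison set Kac after benzoate against Kac without it. Of the 22 control Kac peaks at the 7 genes, 3 had no SB Kac peak, and of the 22 SB Kac peaks, 3 had no control Kac peak. In the whole lists these shares were 35.3% and 27.5%. Each of the 6 unshared peaks belonged to SREBF1, SREBF2 or IDI1, lay away from the TSS and had a percentile of at most 46.8. The shared peaks had a median percentile of 63.6 in control Kac and 69.8 in SB Kac.

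The sequence under Kac peaks was 52.2 kb in control cells and 49.1 kb in SB cells over the 7 windows. The genes did not go one way. SQLE went from 3.585 to 2.81 kb, SREBF2 from 17.5 to 10.9 kb and IDI1 from 3.82 to 3.35 kb. The SB value was the larger one at SREBF1, with 13.9 and 18.1 kb, and by less than 0.3 kb at HMGCS1, FDFT1 and INSIG1. Of protein-coding genes with Kac in both lists, 50.5% had fewer SB than control bases. These directions depended on the threshold. When a −log10 q of 5 or more was required, the SB minus control difference turned to 2.81 kb at SQLE and 3.18 kb at SREBF2. It turned to -2.42 kb at HMGCS1, whose SB Kac peak fell just short at 4.95, and to -0.06 kb at FDFT1. SREBF1 and INSIG1 kept their direction, at 0.235 and 0.416 kb. At IDI1 neither Kac peak over the TSS passed. The 0.328 kb left there was the edge of the SB Kac peak over the start of WDR37, whose control counterpart began past the window. The sum depended on the threshold too. The SB minus control difference was -3.13 kb with all peaks, 4.49 kb when a −log10 q of 5 or more was required, and 18.4 kb when the 15000 most significant peaks of each list were kept. Within 3 kb of the TSS, where 52.1% of protein-coding genes with Kac had more SB bases, 3 of the 7 had more and the difference over all 7 was -0.662 kb. In rank the SB Kac percentile was the higher one at SQLE, SREBF2, IDI1 and FDFT1, by 16.9, 15.4, 11.7 and 3.73 points, and the lower one at HMGCS1, INSIG1 and SREBF1. The ranked peak was the shorter one in SB at SQLE, SREBF2, IDI1 and FDFT1, and the longer one at HMGCS1, INSIG1 and SREBF1. The fold is an average over the peak, so rank and peak length are not independent measures. The part of length in these ranks was not tested. In 65.3% of protein-coding genes with Kac over the TSS in both lists the SB percentile was the higher one, with a median difference of 2.54 points.

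**Figure D4:**
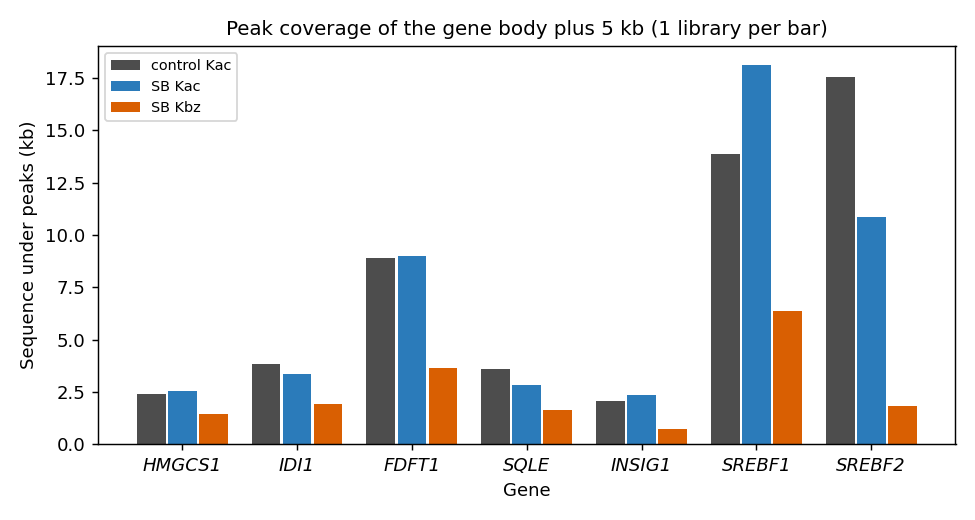
Bars give the sequence in kb under peaks of each list in the gene body plus 5 kb, for 1 library per bar and therefore without error bars. SREBF2 has 17.5 kb under control Kac and 10.9 kb under SB Kac (an order that turns at a −log10 q of 5 or more), SREBF1 has 13.9 and 18.1 kb, and the other genes differ by less than 0.8 kb between the Kac lists.

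Kbz was then set against Kac in the same SB cells. All 11 Kbz peaks overlapped an SB Kac peak, against 93.7% of all Kbz peaks, and all 11 lay wholly inside one, against 72.4%. In 10 of the 11 the Kbz peak was also wholly inside control Kac, for which the share over all Kbz peaks was not computed. Conversely 11 of the 22 SB Kac peaks overlapped Kbz, against 33.8% of the whole list, and 11 of the 22 control Kac peaks, against 30.3%. The SB Kac peaks with Kbz stood at percentiles from 63.0 to 96.9 with a median of 79.0, and those without from 4.13 to 65.5 with a median of 35.7.

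Kbz peaks over the TSS were the shorter ones in each of the 6 genes. They reached from 764 to 1077 bp upstream and from 526 to 2484 bp downstream, against 1090 to 2664 and 900 to 6220 bp for SB Kac. The Kbz reach at other genes was alike, with medians of 852 bp upstream and 885 bp downstream over 9170 genes. Of the sequence under SB Kac within 3 kb of the TSS, Kbz took 72.8% at IDI1, 71.2% at SREBF1, 58.7% at SQLE, 57.2% at HMGCS1, 43.1% at FDFT1, 40.2% at SREBF2 and 29.8% at INSIG1. The median of 57.2% was close to the 57.4% of protein-coding genes with SB Kac over the TSS, whose quartiles were 37.1 and 75.7%.

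The other genes of the pathway showed how far these patterns extend. A list of 21 comprised 17 further enzymes and the regulators SCAP, INSIG2, MBTPS1 and MBTPS2, and was not meant to be complete. Control Kac lay over the TSS in 19 of them, SB Kac in 20 and Kbz in 18, against 59.1%, 60.4% and 45.8% of protein-coding genes. HSD17B7, which reduces the keto group of sterol intermediates, had 0 peaks within 3 kb of its TSS. TM7SF2, a sterol reductase, had its TSS under SB Kac but not under control Kac or Kbz, although control Kac covered 53.9% of the positions within 3 kb. INSIG2, the relative of INSIG1, had Kac over its TSS in both groups, unlike INSIG1, and a Kbz peak covering 5.67% of the positions within 3 kb and not the TSS.

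Kbz percentiles in the pathway list ran from 26.1 at GGPS1 to 99.1 at MVK, which phosphorylates mevalonate, and the median of the 18 genes with Kbz over the TSS was 73.1, close to the 71.1 of all protein-coding genes. FDPS, which supplies the farnesyl diphosphate used by FDFT1, stood at 92.0. The low Kbz ranks of HMGCS1, IDI1, FDFT1 and SQLE were therefore not found throughout the route. They were not confined to these enzymes either. Among others, LBR (47.5), MVD (45.4), MSMO1 (42.0) and SC5D (41.6) also stood below IDI1 (51.0). Within 3 kb of the TSS, SB Kac covered more bases than control Kac in 14 of the 21 genes and fewer in 5. Of protein-coding genes with Kac there, 52.1% had more SB bases. The SB percentile was the higher one in 13 and the lower one in 7. It was the higher one in 65.3% of protein-coding genes with Kac over the TSS in both lists, a share close to that of the pathway genes.

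**Figure D5:**
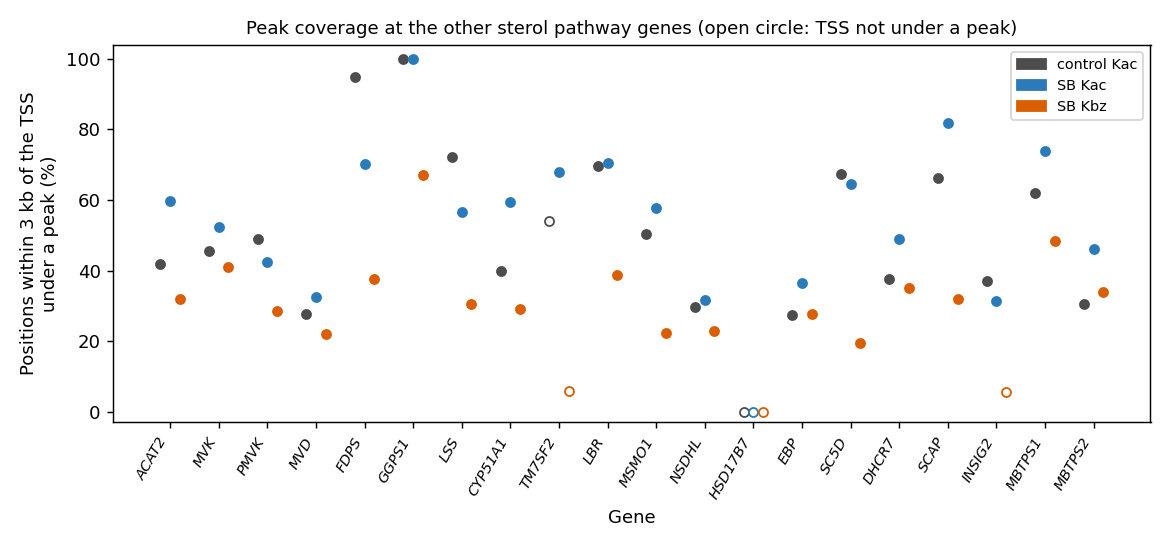
Points give the percentage of positions within 3 kb of the TSS under a peak of each list for 20 of the 21 other sterol pathway genes, filled where the TSS itself is under a peak and open where it is not. HSD17B7 lies at 0 in all 3 lists, and Kbz at TM7SF2 and INSIG2 is open at 5.80% and 5.67%.

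Of the 11982 protein-coding genes with peaks of all 3 lists within 3 kb of the TSS, the 3 outside both lists whose percentiles lay nearest to the median of the 7 (control Kac 76.7, SB Kac 81.2, Kbz 46.1) were TUT7, RCC1L and GRK3, at Euclidean distances of 0.537, 0.896 and 1.30 percentile points. The distance rests on 3 values per gene, each from 1 library.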

How the data were processed

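Per the study's methods and the labels, the authors aligned single reads of 50 bp to hg38 with Bowtie2 2.2.6, kept unique alignments, removed duplicates with SAMtools 0.1.19 and called peaks per library with MACS2 2.1.1 at an FDR of 0.01. The deposited lists reach a q of 0.0494, and the broad setting is not given in the sources used here. The deposited fold is a ratio of read density to background averaged over the peak, and it was used as a percentile within its list. Thresholds were set on the −log10 p and −log10 q values as deposited, while the score column of the deposited lists was not used. Since the lists carry no read totals, the depth of each library is unknown, no interval is given, and a deeper library can yield more peaks from the same chromatin.

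Sequences other than the assembled chromosomes were dropped, with 3 control Kac peaks on them. Genes came from GENCODE 44, with the TSS of the canonical transcript. Overlap meant at least 1 bp. No test was possible with 1 library per group. All 7 genes are named, the 21 other pathway genes are named where they lack a mark most of that list has, and others singled out by value were chosen after their values were seen. The genes and lists were chosen with earlier results of these data known. Overlap counts were checked with positions placed inside and just past control Kac peaks, and against a direct count in the 7 windows. Python 3.11.15, numpy 2.4.6, pandas 2.3.3 and matplotlib 3.10.9 were used. The values of 1 gene of the pathway list and 1 liver marker are not reported here singly.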

Additional observations from a re-analysis of the deposited data

How the results depend on the processing

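For 11 counts or sums, 69 values were recomputed, each under 1 altered choice. Of these, 46 lay within 1.5 times of the value reported, 21 lay further from it and 2 had the other sign. No alternative was added later. No paired analysis was possible because there is a single library per group, which also leaves no replicate to omit. Fewer peaks pass a higher threshold by construction, and for other shifts the cause was not tested. The matching shares over all protein-coding genes or all peaks were not computed under the altered choices.

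Among peaks whose −log10 q was 5 or more, the 7 genes kept 7 control Kac, 7 SB Kac and 4 Kbz peaks, 3 of the Kbz peaks overlapped SB Kac, the TSS was under control Kac in 3 genes and under Kbz in 2, and the SB minus control Kac difference turned to 4.49 kb. Restricting every list to its 15000 most significant peaks by −log10 p left 3 control Kac, 6 SB Kac and 7 Kbz peaks. Of these, 1 control Kac peak had no SB Kac peak, 5 Kbz peaks overlapped SB Kac, control Kac lay over 1 TSS, and the difference was 18.4 kb. Within 3 kb of the TSS there were 8 control Kac, 8 SB Kac and 7 Kbz peaks, 7 Kbz peaks overlapped SB Kac, 0 Kac peaks of either list were unshared, and the difference was -0.662 kb. Unshared SB Kac peaks numbered 1 in the gene body alone and 5 when 50% of the peak had to be covered. Kbz over the TSS of the other pathway genes stayed within 1.5 times, between 12 and 19 of the 21.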
